A study of Mus musculus with 16 samples.

Results

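Fabp7, a lipid-binding protein of glial precursors, was set beside 7 genes of myelinating Schwann cells in the newborn inner ear of mice with and without the nuclear receptor COUP-TFI (gene symbol Nr2f1). The members were taken by gene symbol. All probe sets that the platform annotation assigns to Fabp7, Egr2, Erbb3, Mbp, Pmp22, Mag, Mal or Cnp were used, which gave 12 of the 12422 non-control probe sets on the chip and 8 of the 8251 genes with a symbol of their own. Erbb3, Mbp, Pmp22 and Mag have 2 probe sets each. The genes were chosen by their values on these chips, with the GCRMA and dChip differences between genotypes known, so those differences are described here and not tested, while the difference between the hybridization sets, which the choice did not use, was tested.

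RNA came from whole inner ears taken at P0, the day of birth. COUP-TFI-/- mice, homozygous for a null allele of the receptor, were compared with wild-type mice, and both genotypes were of strain 129SvEv. Each genotype was hybridized to 4 Affymetrix MG-U74Av2 chips in 2 sets, called A and B, on separate occasions. For each genotype a set held 1 pool of RNA from several ears, on a pair of chips numbered 1 and 2. There were thus 2 pools per genotype, duplicates measure the chip and not the animals, and p-values rest on 4 pools. Every chip has a GCRMA value, which is on the log2 scale, and a dChip value, which is a linear intensity. Across all probe sets the median absolute genotype difference was 0.06 with GCRMA and 0.07 with dChip (log2), the median SD of duplicate chips was 0.09 in each, and the median absolute difference between sets was 0.16 with GCRMA and 0.19 with dChip. Nr2f1 itself averaged 4.93 ± 0.29 in COUP-TFI-/- and 8.30 ± 0.56 in wild-type ears (GCRMA log2, SD, n = 4 chips), a level in COUP-TFI-/- of 9.67% of wild-type. The chips matched their genotype labels, while Nr2f1 does not check the set and replicate labels.

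Schwann cells are the glia of peripheral nerves and wrap the axons of the auditory and vestibular nerves. They arise from neural crest as precursors that carry Fabp7 and Erbb3, and survive on neuregulin from axons, which signals through Erbb2 and Erbb3. When they turn to myelination, the zinc finger factor Egr2 (Krox20), acting with Sox10, raises the genes of myelin proteins and lipids. Fabp7, or brain lipid-binding protein, carries long-chain fatty acids in radial glia, Schwann cell precursors and satellite glia. COUP-TFI is an orphan nuclear receptor that binds DNA as a dimer over pairs of short hexamers.

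The start of Fabp7 is shown because it is the member whose level differed most between genotypes and because the study designed chromatin immunoprecipitation primers for its promoter, the 1 promoter of a member among the regions assayed. Promoter windows are RefSeq's, on GRCm38.p6, and run from 250 bases before to 50 bases after a gene's start. Of the 8 members, 6 had such a window, 15 windows in all, since several starts are annotated for Mag, Egr2 and Pmp22. The letters AGGTCA or GGGTCA, the core hexamers of nuclear receptor sites, were searched on both strands and are given in capitals, so that TGACCT and TGACCC are the same hexamers read from the other strand. For comparison, the Pmp22 and Cnp windows that also hold a hexamer before the start are given. They belong to genes whose levels differed little between genotypes.
Fabp7, chr10:57784673-57784972, plus strand: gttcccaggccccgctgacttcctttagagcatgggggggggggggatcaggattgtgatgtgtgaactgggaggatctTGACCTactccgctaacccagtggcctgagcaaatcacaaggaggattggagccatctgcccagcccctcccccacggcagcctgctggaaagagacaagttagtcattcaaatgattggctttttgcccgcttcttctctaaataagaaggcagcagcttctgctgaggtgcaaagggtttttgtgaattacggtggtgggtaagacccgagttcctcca
Pmp22, chr11:63131207-63131506, plus strand: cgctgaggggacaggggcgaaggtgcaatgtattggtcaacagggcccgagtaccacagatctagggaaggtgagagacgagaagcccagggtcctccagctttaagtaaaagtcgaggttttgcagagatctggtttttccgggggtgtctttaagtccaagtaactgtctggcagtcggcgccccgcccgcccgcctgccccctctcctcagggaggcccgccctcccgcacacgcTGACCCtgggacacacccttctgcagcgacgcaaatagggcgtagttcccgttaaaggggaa
Cnp, chr11:100574689-100574988, plus strand: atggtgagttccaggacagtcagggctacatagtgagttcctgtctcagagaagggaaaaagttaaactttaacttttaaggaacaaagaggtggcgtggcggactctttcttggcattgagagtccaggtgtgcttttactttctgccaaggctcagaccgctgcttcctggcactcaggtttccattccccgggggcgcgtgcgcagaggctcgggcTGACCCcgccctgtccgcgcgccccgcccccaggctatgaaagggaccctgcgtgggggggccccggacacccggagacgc
The Fabp7 window held 1 hexamer, AGGTCA on the minus strand, from 171 to 166 bases before the start. In the windows shown, Pmp22 held GGGTCA on the minus strand 12 bases before the start and Cnp held it 31 bases before the start. A further Pmp22 window held 1 just after its start. In all, 4 of the 15 member windows held a hexamer, against 27.5% of 32851 mouse windows. The SOX letters ACAAAG or ACAATG were in 3 member windows, of Mag and Cnp, against 28.6% of all windows. Both Mag windows with the letters overlap and hold the same copy. The EGR sites GCGTGGGCG or GCGGGGGCG were in 0 of the 15 member windows, against 3.47% of all. A match is a stretch of letters and not a measured binding site. The search takes exact letters only and so misses inexact repeats. The study's probabilistic model of repeated hexamers predicted closely spaced, conserved COUP-TF sites in the upstream Fabp7 promoter. Those sites were not looked for here.

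The study's primers for the Fabp7 promoter match this window exactly. They are shown to place the region that was assayed against the letters above. By chromatin immunoprecipitation the study reported COUP-TFI at the Fabp7 promoter in wild-type embryonic fibroblasts and newborn brain, above COUP-TFI-/-. Apart from the chips, it also reported less Fabp7 transcript by real-time RT-PCR in COUP-TFI-/- fibroblasts, P0 inner ears and brain cortex. Fabp7 protein was reported lower in COUP-TFI-/- inner ears and brain.
Fabp7 forward primer: ctaacccagtggcctgagca
Fabp7 reverse primer: tgggcagatggctccaat
The forward primer lies on the plus strand and the reverse primer on the minus strand. They enclose 51 bases, chr10:57784764-57784814, from 159 to 109 bases before the start. Between the hexamer and the first base of this product lie 6 bases. The gene lies on chromosome 10 at chr10:57784923-57788450.

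Fabp7 was lower in COUP-TFI-/- ears in both sets and with both normalizations. With GCRMA, probe set 98967_at gave 10.12, 10.13, 9.47 and 9.73 on COUP-TFI-/- chips A1, A2, B1 and B2, against 10.65, 10.47, 10.28 and 10.38 on wild-type chips A1, A2, B1 and B2 (log2). The highest COUP-TFI-/- chip was below the lowest wild-type chip. With dChip the intensities were 2558, 2545, 1821 and 2178 on the COUP-TFI-/- chips, against 3075, 3129, 2792 and 3068 on the wild-type chips in the same order. Here too the genotypes did not overlap, and the set B chips were the lowest of the COUP-TFI-/- group.

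**Figure D1:**
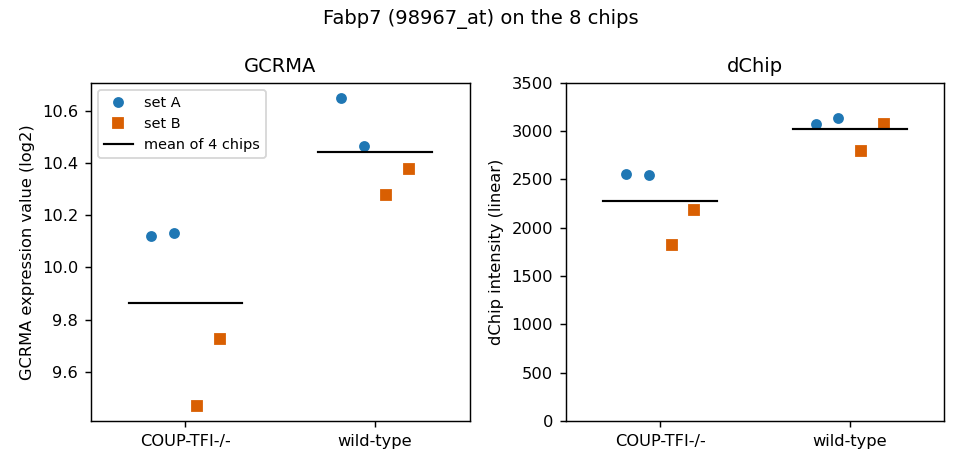
Fabp7 on each chip, with GCRMA in log2 units and with dChip as linear intensity, for COUP-TFI-/- and wild-type inner ears. Points are chips, coloured by hybridization set, and bars are means of 4 chips, 9.86 in COUP-TFI-/- and 10.44 in wild-type with GCRMA and 2275 in COUP-TFI-/- and 3016 in wild-type with dChip.

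The mean was 9.86 ± 0.32 in COUP-TFI-/- and 10.44 ± 0.16 in wild-type with GCRMA (log2), and 2275 ± 351 in COUP-TFI-/- and 3016 ± 152 in wild-type with dChip (SD, n = 4 chips). The log2 difference, COUP-TFI-/- minus wild-type, was -0.43 for set A and -0.73 for set B with GCRMA, a mean of -0.58 with an SD of 0.21 between the sets. With dChip it was -0.28 for set A and -0.56 for set B, a mean of -0.42 with an SD of 0.19. The COUP-TFI-/- level was thus 66.8% of wild-type with GCRMA and 74.8% with dChip. By set, it was 74.1% for set A and 60.3% for set B with GCRMA, and 82.3% for set A and 68.0% for set B with dChip. The pool means leave no residual to test whether sets A and B differ in this.

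The fall in Fabp7 ranked 5th among the falls of all 12422 probe sets with GCRMA and 103rd of 12421 with dChip. It was the single member past limma's adjusted p of 0.05 with GCRMA, 1 of 12 against 0.105% of all probe sets, and 0 of 12 passed with dChip, against 0.00805% of all. At an unadjusted p under 0.05 the count was 1 of 12 with each normalization, against 4.58% of all probe sets with GCRMA and 2.13% with dChip. The GCRMA call was also lost with quantile or median scaling, with no replicate block, and without COUP-TFI-/- A1, wild-type A2 or wild-type B1. Since the contrast chose the gene, these counts are given as a description. In whole-ear RNA, fewer Fabp7 cells and less Fabp7 RNA per cell cannot be told apart.

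The 7 myelinating Schwann cell genes showed no shared shift with Fabp7. Over their 11 probe sets the genotype difference had a median of 0.003 with GCRMA and -0.004 with dChip (log2). Of these 11, 6 lay below the median level of the chip, and without detection calls it is not shown which were detected. The differences ran between -0.12 and 0.12 with GCRMA and between -0.14 and 0.11 with dChip, and 5 of 11 were below 0 with GCRMA and 6 of 11 with dChip. The sign was the same in sets A and B in 5 of 11 probe sets with GCRMA, against 45.6% of all probe sets, and in 3 of 11 with dChip, against 43.7% of all. Of those 5 with GCRMA, 4 were above 0, against 24.2% of all probe sets, and 1 was below, against 21.4% of all. In 3 of 11 probe sets the normalizations had opposite signs.

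**Figure D2:**
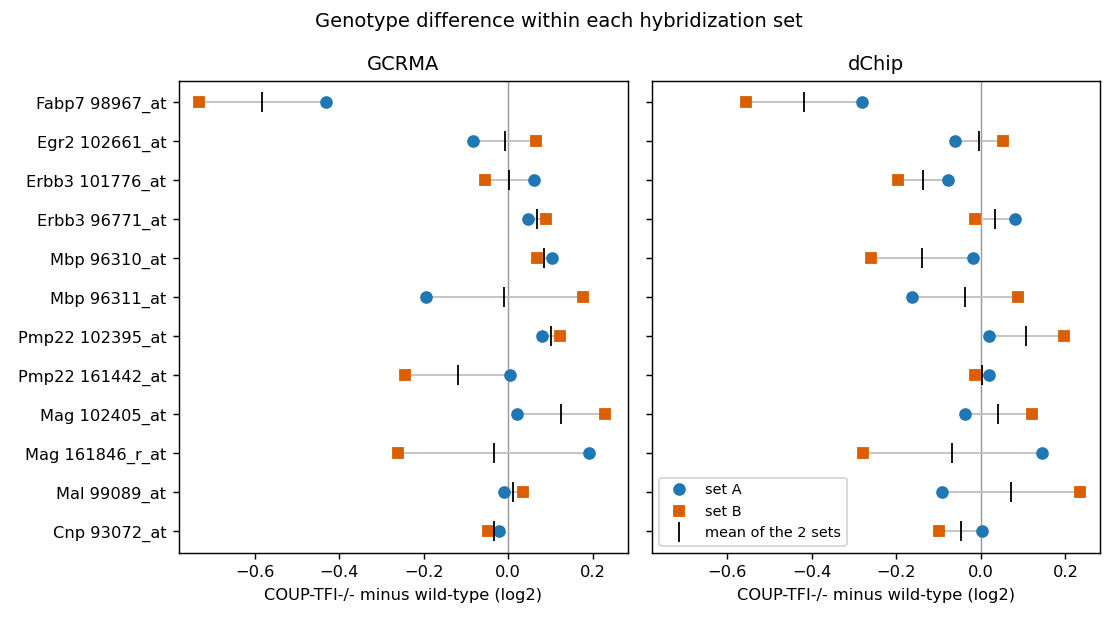
Log2 difference, COUP-TFI-/- minus wild-type, in set A and set B for the 12 probe sets, with GCRMA and with dChip. Fabp7 lies at -0.43 and -0.73 with GCRMA, while the other 11 probe sets lie between -0.26 and 0.23 in the single sets with GCRMA.

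Among the regulators, Egr2, the zinc finger factor that drives myelin genes, differed little between genotypes. Probe set 102661_at gave 7.07, 7.10, 6.91 and 6.77 on COUP-TFI-/- chips A1, A2, B1 and B2, against 7.14, 7.19, 6.73 and 6.81 on the wild-type chips (GCRMA log2). The set A chips were the higher ones in each genotype and the genotypes overlapped. The difference was -0.08 for set A and 0.07 for set B. With dChip it was -0.06 for set A and 0.05 for set B.

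Erbb3, the neuregulin receptor that Schwann cell precursors depend on, was measured by a pair of probe sets. On 96771_at it gave 8.72, 8.65, 8.22 and 8.31 on the COUP-TFI-/- chips, against 8.58, 8.70, 8.10 and 8.25 on the wild-type chips (GCRMA log2). Its genotypes overlapped, its set A chips stood above its set B chips, and the difference was 0.05 for set A and 0.09 for set B. On 101776_at all 8 chips lay within 6.57 and 6.76, and the difference was 0.06 for set A and -0.06 for set B. With dChip this second probe set was lower in COUP-TFI-/- ears in both sets, by a mean log2 difference of -0.14, where 96771_at gave 0.03. The probe sets of Erbb3 thus had opposite signs with dChip.

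Mbp encodes the basic protein that brings the inner faces of compact myelin together. On 96311_at it gave 8.96, 8.94, 8.89 and 8.96 on the COUP-TFI-/- chips, against 9.11, 9.17, 8.70 and 8.79 on the wild-type chips (GCRMA log2). The COUP-TFI-/- values lay between the set A and the set B values of wild-type, so that the genotype difference was -0.19 for set A and 0.18 for set B. On 96310_at the difference was 0.10 for set A and 0.07 for set B with GCRMA, but -0.02 for set A and -0.26 for set B with dChip. The direction of Mbp on this probe set therefore depended on the normalization.

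Pmp22 encodes a membrane protein of compact peripheral myelin whose dosage is altered in inherited neuropathies. On 102395_at it gave 10.17, 10.26, 10.25 and 10.32 on the COUP-TFI-/- chips, against 10.16, 10.11, 10.17 and 10.16 on the wild-type chips (GCRMA log2). COUP-TFI-/- chip A1 was nearly level with the highest wild-type chip, yet the genotypes did not overlap, and the difference was 0.08 for set A and 0.12 for set B. With dChip the intensities were 2337, 2503, 2722 and 3023 on the COUP-TFI-/- chips, against 2346, 2427, 2409 and 2604 on the wild-type chips, and the groups overlapped. On 161442_at, whose values ran between 4.60 and 5.32 with GCRMA, the mean difference was -0.12 with GCRMA and 0.0031 with dChip. The pair of Pmp22 probe sets thus had opposite signs with GCRMA. In all, 2 of 12 member probe sets did not overlap between genotypes with GCRMA, Fabp7 below and this Pmp22 probe set above wild-type, against 2.26% of all probe sets, and 1 of 12 with dChip, Fabp7, against 1.89% of all.

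Mag encodes an adhesion molecule of the membrane that faces the axon. On 102405_at it gave 6.42, 6.43, 6.89 and 6.46 on the COUP-TFI-/- chips, against 6.43, 6.38, 6.44 and 6.45 on the wild-type chips (GCRMA log2). Chip B1 of COUP-TFI-/- stood apart and carried most of the mean difference of 0.12, which was 0.02 without that chip. With dChip the same probe set was -0.04 for set A and 0.12 for set B. On 161846_r_at the values were 10.66, 10.76, 10.42 and 10.44 on the COUP-TFI-/- chips, against 10.39, 10.65, 10.63 and 10.74 on the wild-type chips. The difference on 161846_r_at was 0.19 for set A and -0.26 for set B, so that its mean of -0.03 joined opposite directions.

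Mal is a proteolipid of myelin membrane rafts and Cnp an enzyme of non-compact myelin. On 99089_at Mal gave 7.76, 7.84, 7.90 and 8.00 on the COUP-TFI-/- chips, against 7.86, 7.77, 7.97 and 7.86 on the wild-type chips (GCRMA log2), a mean difference of 0.01. With dChip it was -0.09 for set A and 0.23 for set B. On 93072_at Cnp gave 5.15, 5.40, 5.48 and 5.55 on the COUP-TFI-/- chips, against 5.33, 5.26, 5.65 and 5.46 on the wild-type chips, a difference of -0.02 for set A and -0.05 for set B. The genotypes overlapped for Mal and for Cnp, and Cnp was the single probe set of the 11 below 0 in both sets with GCRMA.

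**Figure D3:**
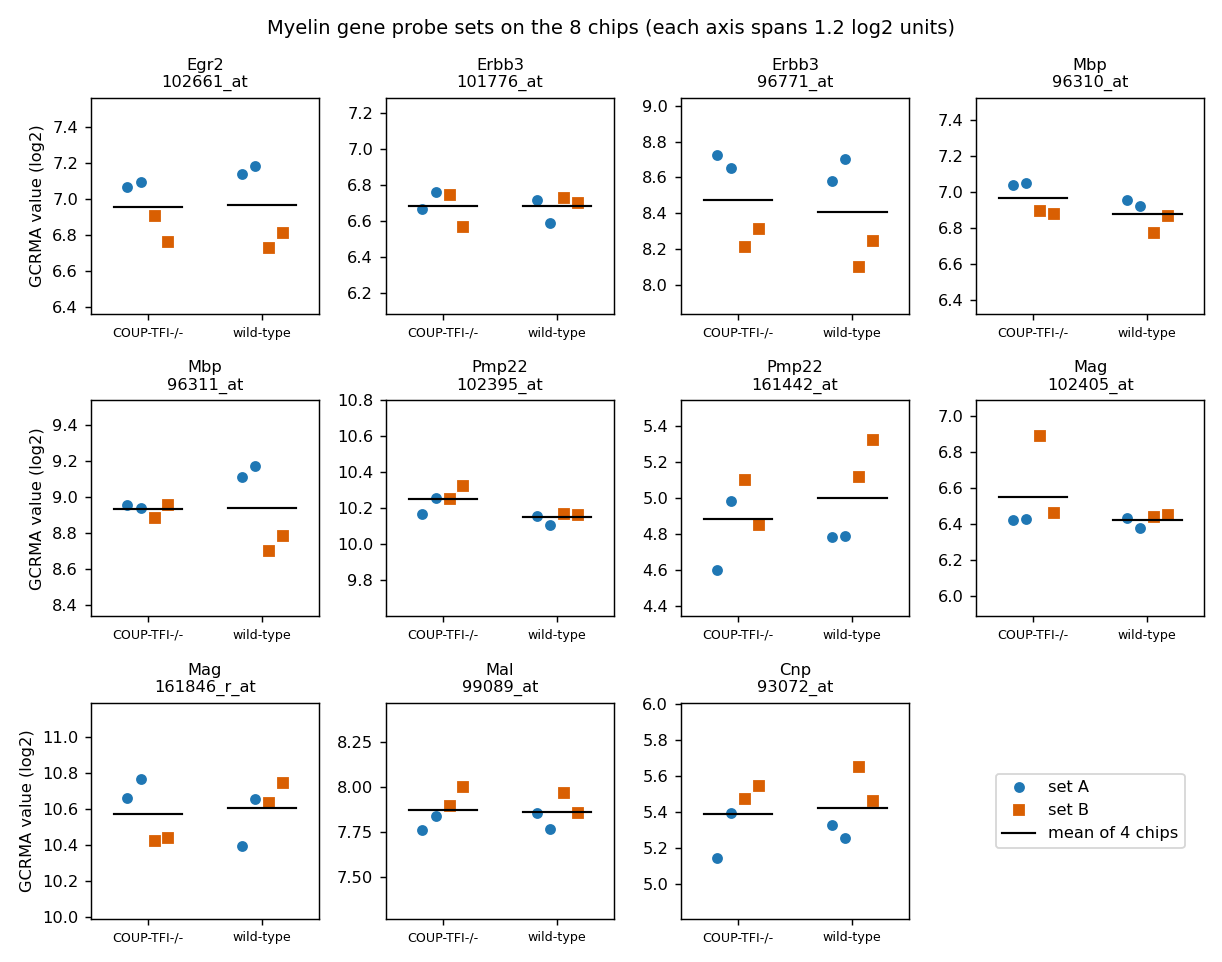
GCRMA values (log2) of the 11 probe sets of Egr2, Erbb3, Mbp, Pmp22, Mag, Mal and Cnp on each chip, COUP-TFI-/- left and wild-type right, on axes that each span 1.2 log2 units. Points are chips by set and bars are means of 4 chips; the genotypes overlap on every probe set other than Pmp22 102395_at.

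Several members differed more between the hybridization sets than between the genotypes. With limma on the pool means, 4 of 12 member probe sets differed between set A and set B with GCRMA at an adjusted p under 0.05, against 25.8% of all probe sets, and 2 of 12 with dChip, against 11.7% of all. Of the 4, 3 were higher in set A, against 13.6% of all probe sets, and 1 was lower, against 12.2% of all. Erbb3 96771_at was higher in set A by 0.44 (SE 0.10, adjusted p = 0.0031), Fabp7 by 0.38 (SE 0.10, adjusted p = 0.013) and Egr2 by 0.32 (SE 0.10, adjusted p = 0.0244). Pmp22 161442_at was lower in set A, with a difference of -0.31 (SE 0.10, adjusted p = 0.034).

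With dChip the same contrast gave 0.25 for Erbb3 96771_at (adjusted p = 0.157), 0.22 for Fabp7 (adjusted p = 0.245) and 0.24 for Egr2 (adjusted p = 0.176), none past the threshold. Pmp22 161442_at was the 1 probe set that passed with both normalizations, at -0.45 with dChip (adjusted p = 0.0471). Its dChip call was lost at a floor of 16 (adjusted p = 0.0818). At that floor its difference stayed at -0.45 and 0 of all probe sets passed, against 1449 at a floor of 1. Its GCRMA call was lost with quantile scaling (adjusted p = 0.0668) and with no replicate block (adjusted p = 0.0617). The brighter Pmp22 102395_at was at -0.05 with GCRMA (adjusted p = 0.722). Mbp 96311_at passed with dChip alone, at 0.59 (adjusted p = 0.0349), where GCRMA gave 0.21 (adjusted p = 0.158). Cnp was at -0.25 with GCRMA (adjusted p = 0.0643). The shares of members called were near those of all probe sets. In chips, sets A and B did not overlap on 6 of 12 member probe sets with GCRMA, against 37.1% of all, and on 4 of 12 with dChip, against 40.5% of all.

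The set difference of Fabp7 was 0.53 in COUP-TFI-/- and 0.23 in wild-type ears with GCRMA. Its call between sets was lost without wild-type chip B1 (adjusted p = 0.0581). The Egr2 call was lost without COUP-TFI-/- A1, COUP-TFI-/- B2 or wild-type B1, with adjusted p between 0.0569 and 0.0714, and the Pmp22 161442_at call without COUP-TFI-/- A1 or B1 or wild-type A2, B1 or B2, with adjusted p between 0.0561 and 0.267. Cnp passed without COUP-TFI-/- A2 (adjusted p = 0.0271) and without wild-type B2 (adjusted p = 0.0297). Erbb3 96771_at kept its call whichever chip was left out.

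**Figure D4:**
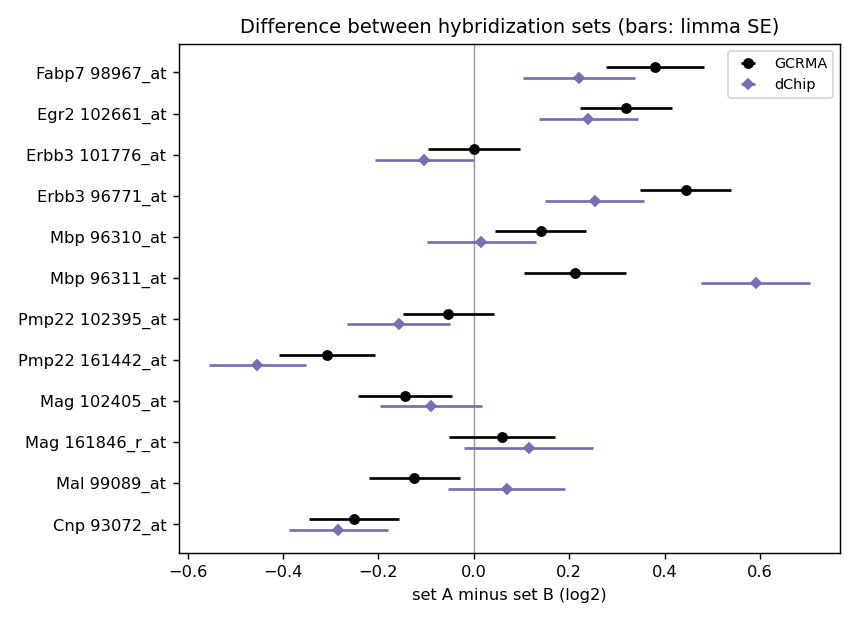
Log2 difference, set A minus set B, for the 12 probe sets with GCRMA and with dChip, with limma's SE as bars. Erbb3 96771_at, Fabp7 and Egr2 lie at 0.44, 0.38 and 0.32 with GCRMA, and Pmp22 161442_at lies below 0 with both normalizations.

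Other genes of myelin and of the Schwann cell lineage were described from lists, with 1 probe set per gene. None of 9 further myelin protein genes on the chip passed limma's adjusted p for genotype with either normalization, and 1 passed at an unadjusted p with GCRMA. Their median difference was 0.03, beside 0.00077 over all probe sets (GCRMA log2). Over all probe sets 0.105% passed at the adjusted p and 4.58% at the unadjusted p with GCRMA, the shares to set beside this and the following lists. Mog, a protein of central myelin, was at 0.16 for set A and 0.42 for set B (adjusted p = 0.752), and Cd9, a tetraspanin, at -0.22 for set A and -0.12 for set B. Gjb1, the connexin of Schwann cell incisures, was at 0.03. Mog and Mobp are also in the list of oligodendrocyte and brain glia markers below, and Mog is the gene at an unadjusted p in both lists.

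Of 16 Schwann cell transcription factors and cofactors, 0 passed with GCRMA or with dChip and 1 was lower at an unadjusted p, with a median difference of 0.01. Sox10, the lineage factor that acts with Egr2, was at 9.14 in COUP-TFI-/- and 9.09 in wild-type ears (GCRMA log2). Sox2, a factor of immature Schwann cells and also of inner ear sensory epithelium, was at -0.39 for set A and -0.32 for set B (adjusted p = 0.427). Id4 was at -0.17 for set A and -0.06 for set B.

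Neuregulin and other axon-to-Schwann cell signals had 13 genes on the chip, of which 0 passed and 1 was higher at an unadjusted p, with a median of -0.02. Igf1r, a growth factor receptor, was at 0.07 for set A and 0.43 for set B, and Pik3r1, a regulatory subunit of phosphoinositide kinase, at 0.15 for set A and 0.14 for set B. Of 16 genes listed for immature Schwann cells and satellite glia, 0 passed and 2 were higher at an unadjusted p, with a median of 0.0023. S100b, a calcium-binding protein found in Schwann cells, was at 8.68 in COUP-TFI-/- and 8.69 in wild-type ears. The part of other ear cells in the levels of these 16 genes, S100b among them, and of Sox10 was not tested. Art3 was at 0.17 for set A and 0.30 for set B, and Matn2 at 0.18 for set A and 0.26 for set B.

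Of 13 enzymes of myelin lipid synthesis, 0 passed at the adjusted or the unadjusted p with GCRMA, with a median of -0.02. The differences ran between -0.13 and 0.06, and Fasn, the fatty acid synthase, was at -0.13 and Gpd1, the cytosolic glycerol-3-phosphate dehydrogenase, at -0.09. In the family to which Fabp7 belongs, the fatty acid and retinoid binding proteins, 10 further genes were on the chip, 0 passed, and 3 were lower at an unadjusted p. Their median was -0.04. Crabp1 and Crabp2, which bind retinoic acid, were each at -0.27 (adjusted p = 0.777 for each), and the fat cell protein Fabp4 was also at -0.27 (adjusted p = 0.847). The COUP-TFI-/- chips of Crabp1 lay below all wild-type chips with both normalizations, and those of Crabp2 with dChip. Fabp5, the epidermal form, was at -0.11, and Fabp3, the heart form, at -0.29 for set A and 0.34 for set B. With the lists of other cells included, 2 of 137 listed genes passed with GCRMA, against 0.105% of all probe sets, and 0 with dChip, against 0.00805% of all. At an unadjusted p, 28 passed with GCRMA, against 4.58% of all, and 9 with dChip, against 2.13% of all. Of the 28, 14 were striated muscle genes.

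**Figure D5:**
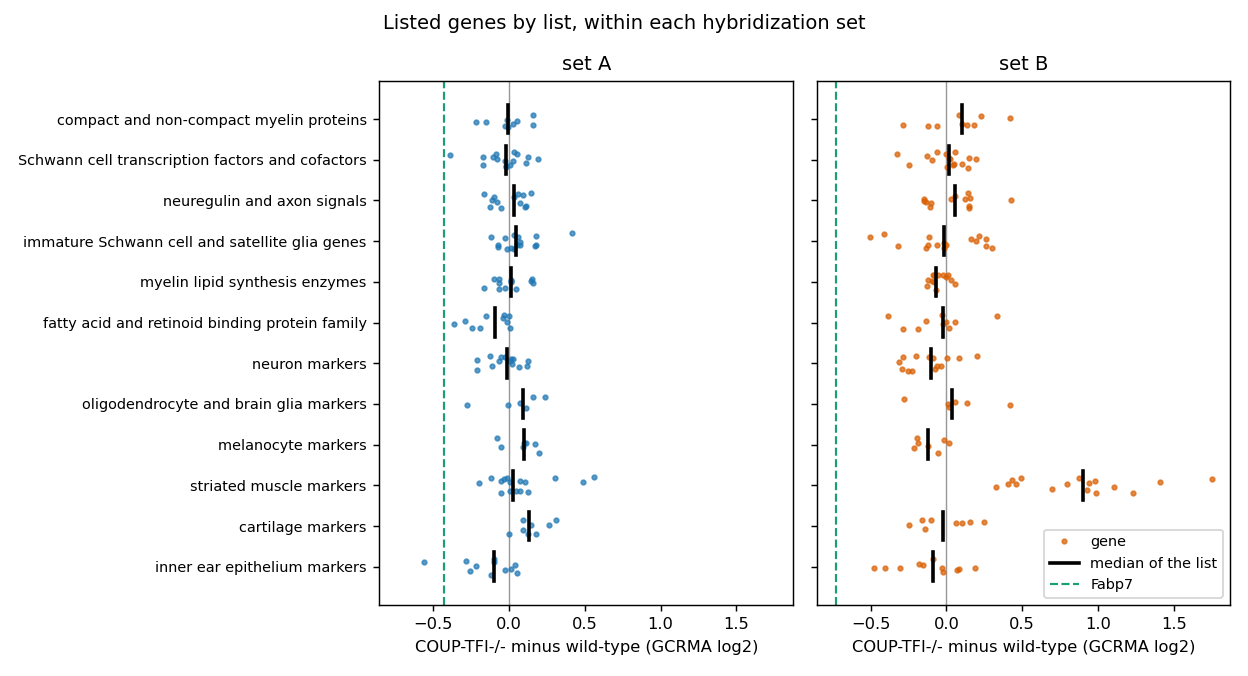
Log2 difference, COUP-TFI-/- minus wild-type with GCRMA, of each listed gene in set A and in set B, by list, with the list's median as a bar and Fabp7 as a dashed line. No list's median reaches the Fabp7 line; striated muscle has a median of 0.03 for set A and 0.90 for set B.

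Markers of other cells in the dissected ear were read beside Fabp7. Of 14 Schwann cell markers, 9 had a probe set of their own, and the others were not analysed here. By the brighter probe set of each gene their COUP-TFI-/- and wild-type means were at least 6.96 (GCRMA log2), with Egr2 and Gjb1 below the median of the chip, and without detection calls these levels do not show which markers were detected. The dimmer probe sets of Mag, Mbp, Pmp22 and Erbb3 were all below that median. For Mag, 161846_r_at averaged 10.57 in COUP-TFI-/- and 10.60 in wild-type ears, but 102405_at averaged 6.55 and 6.42. Which of the Mag probe sets gives the level of Mag was not tested. Striated muscle genes had the larger median difference in set B, where the Fabp7 difference was also larger. All 16 had a mean difference above 0, 14 at an unadjusted p, and the median was 0.03 for set A and 0.90 for set B. Myh3 and Myh8, the embryonic and perinatal myosin heavy chains, passed limma's adjusted p, at 0.49 for set A and 1.11 for set B for Myh3 (adjusted p = 0.014) and at 0.56 for set A and 1.41 for set B for Myh8 (adjusted p = 0.00916). Without COUP-TFI-/- A1, wild-type A2 or wild-type B1, 0 listed genes passed. The summed muscle level ran between 16646 and 18655 on COUP-TFI-/- chips, against 9469 and 17136 on wild-type chips (GCRMA values taken out of log2). By level, 4 of the 16 muscle markers were below the chip median. The study removed genes whose genotype difference changed between the sets, as possible contamination by other tissue at dissection. It found striated muscle classes overrepresented among them. The part of muscle in the Fabp7 difference was not tested.

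Among neuron markers, 10 of 14 had a difference below 0, with a median of -0.09, 0 passed and 2 were lower at an unadjusted p. For 1 of the 10 the platform annotation and the study name different genes. Calb2, the calcium-binding calretinin, was at -0.21 for set A and -0.29 for set B (adjusted p = 0.909), and Ina, a neuronal intermediate filament, at -0.12 for set A and -0.31 for set B. The neuron markers' summed level ran between 4996 and 6162 on COUP-TFI-/- chips, against 5418 and 6394 on wild-type chips. In inner ear epithelium 8 of 11 were below 0, with a median of -0.13, 0 passed and 3 were lower at an unadjusted p. Tectb, a protein of the tectorial membrane, was at -0.56 for set A and -0.41 for set B (adjusted p = 0.106), and Calb1 at -0.29 for set A and -0.30 for set B (adjusted p = 0.705). The epithelial sum ran between 6232 and 8350 on COUP-TFI-/- chips, against 6900 and 9221 on wild-type chips. The part of neurons and epithelium in the Fabp7 difference was not tested.

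Oligodendrocyte and brain glia markers, 6 genes, had a median of 0.06. Melanocyte markers, 7 genes, had a median of -0.01, and cartilage markers, 8 genes, had a median of 0.09. None of these genes passed with GCRMA or with dChip. At an unadjusted p, 1 brain glia marker, Mog, and 1 cartilage marker were higher and 0 melanocyte markers differed. Pdgfra, a receptor of glial precursors and of mesenchyme, was at 0.24 for set A and 0.06 for set B, Kit, a receptor of melanoblasts, at -0.08 for set A and -0.19 for set B, and Acan, the cartilage proteoglycan, at 0.18 for set A and 0.25 for set B. Matn3, a cartilage matrilin, was at 0.31 for set A and 0.06 for set B.

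The genes whose pattern over the 8 chips was most like that of Fabp7 were not myelin genes. By the mean of the Pearson correlations with GCRMA and with dChip log2 values, they were Ucp1 (0.942), Irx3 (0.93), Hmgb3 (0.927), Hmgcs1 (0.922) and Hnrnpdl (0.916). The 8 chips share 4 pools and 2 sets, so these values describe a pattern of genotype and set together. Ucp1, the uncoupling protein of brown fat, was at -0.91 for set A and -1.60 for set B with GCRMA. Hmgcs1, an enzyme of cholesterol synthesis, was at -0.31 for set A and -0.51 for set B, and Irx3, a homeobox factor, at -0.18 for set A and -0.32 for set B. Hmgb3, a chromatin protein, was at -0.11 for set A and -0.32 for set B, and Hnrnpdl, an RNA-binding protein, at -0.20 for set A and -0.52 for set B.

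The members themselves correlated unevenly with Fabp7 over the chips. Pmp22 102395_at ran against it, with r = -0.78 with GCRMA and -0.64 with dChip, as did Mag 102405_at with -0.75 with GCRMA and -0.66 with dChip. Egr2 had 0.43 with GCRMA and 0.19 with dChip, and Erbb3 96771_at 0.38 with GCRMA and 0.40 with dChip. The 5 genes above were picked for the highest mean correlation, so setting the members against them would be no test.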

How the data were processed

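RNA of pooled P0 inner ears was hybridized to 8 MG-U74Av2 chips, with hybridization sets and duplicates read from the chip labels. The authors normalized the chips with GCRMA and deposited log2 values, and with dChip and deposited linear intensity values. Software versions are not given in the sources used here, and raw probe data were not used. No values from the authors' own comparisons were used. Background correction and summarization are thus the authors', and GCRMA and dChip can disagree at low intensity. Of 12488 probe sets, 66 controls were left out, which left 12422 for GCRMA and 12421 for dChip. Before log2, 89 dChip values under 1 were raised to 1. Of the probe sets, 10833 have 1 gene symbol and 396 have several, and 0 symbols needed updating by gene identifier to RefSeq.

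Duplicate chips were averaged, and limma 3.58.1 in R 4.3.3 was fitted to the 4 pool means of all probe sets with genotype and set as terms, 2-sided, with Benjamini-Hochberg adjustment and a threshold of 0.05. The fit has 1 residual degree of freedom, to which limma's prior adds 14.3 (GCRMA) or 4.55 (dChip), so an SE reflects mostly the spread shared by all probe sets. The script was tested on simulated data. The methods pair the pools of a set by hybridization time, and the set A minus set B differences of COUP-TFI-/- and wild-type pools correlated over probe sets at r = 0.752 (GCRMA) and 0.688 (dChip).

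The members and the 12 gene lists were chosen with earlier results of these data known. A list gene is given by its probe set with the highest mean. Genes were named by a rule: all members, Nr2f1, the list genes that passed or else the 2 largest differences of 1 sign in both sets, and the 5 genes that correlate best with Fabp7 among probe sets at or above the median level. Sox10, S100b, Gjb1, Crabp2, Fabp3 and Fabp5 were added after their values were seen. Alternatives were dChip values, chips as separate samples, quantile or median scaling, a level filter, a dChip floor of 16, no replicate block, and leaving out each chip. For listed genes, all probe sets and an unadjusted p were also tried. The number of pools limits the precision.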

Additional observations from a re-analysis of the deposited data

Results flagged for a closer look

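With each normalization, 2 of the 12 probe sets separated the genotypes in opposite directions in the hybridization sets. On these, both COUP-TFI-/- chips lay above both wild-type chips in 1 set and below them in the other. Each pair of chips is 1 pool. The difference between the sets was not tested. The share of all probe sets with this pattern was not counted, so the count is not a result about the members. A different measure, the same sign of the genotype difference in both sets, held in 45.6% of all probe sets with GCRMA and 43.7% with dChip. Set A minus set B of the log2 genotype difference was -0.37 for Mbp 96311_at and 0.45 for Mag 161846_r_at with GCRMA. With dChip it was -0.16 for Mag 102405_at and -0.33 for Mal 99089_at. Single chips also stood apart from the other 3 of their group. Wild-type chip A2 of Pmp22 102395_at was at 10.11 where the others lay between 10.16 and 10.17 (GCRMA log2), and COUP-TFI-/- chip B1 of Mag 102405_at was at 6.89 where the others lay between 6.42 and 6.46. COUP-TFI-/- chip B2 of Egr2 was at a dChip intensity of 125.8 where the others lay between 159 and 163. A chip was named where its gap to the nearest chip, over the range of its group, passed Dixon's critical value of 0.829. These were 3 of 48 groups examined. For 4 independent values chance gives about 1 in 20, but each group here is 2 pairs of duplicate chips from 2 pools, so that rate does not apply exactly.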

How the results depend on the processing

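The genotype difference of Fabp7 stayed below 0 in all 15 alternatives, between -0.65 and -0.42, and between -0.65 and -0.52 without 1 chip. It lost its limma call in 8 of them: with dChip, with a dChip floor of 16, with quantile or median scaling, without the replicate block, and without COUP-TFI-/- A1, wild-type A2 or wild-type B1. Probe sets called for genotype over the whole chip numbered 13, and between 0 and 159 in the alternatives (1 with dChip, 0 with no replicate block, 159 with chips as separate samples). Between sets, 4 member probe sets were called, against 2 with dChip and 0 with a dChip floor of 16. With chips as separate samples, 6 were called. Over the whole chip the counts were 3205, 1449, 0 and 5731 in that order. With probe sets below the median level left out, 2 member probe sets and 2109 probe sets in all were called. That filter removed 6 of the 12 member probe sets, among them the called Egr2 and Pmp22 161442_at. Fabp7 (limma adjusted p = 0.00269) and the brighter Erbb3 probe set (0.00039) kept their calls. Without 1 chip, between 1 and 5 member probe sets were called (2 without COUP-TFI-/- A1, 1 without wild-type B1). The whole chip then had between 2046 and 3309. Fabp7's set difference had an adjusted p between 0.00111 and 0.289, the highest with no replicate block. Of 174 alternatives of members' set differences, 142 kept their direction and side of the threshold, 19 lost the call, 6 gained it and 7 reversed. The reversals were Mal, at 0.069 with dChip at a floor of 1 and 0.069 at a floor of 16, Erbb3 101776_at, between -0.044 and 0.043 without 1 chip, at 0.02 without COUP-TFI-/- A1, 0.043 without COUP-TFI-/- B1, 0.03 without wild-type A2 and 0.0065 without wild-type B1, and Mag 161846_r_at, between -0.0054 and 0.12 without 1 chip, lowest without wild-type A2. Of 137 listed genes 2 were called, against 0 with dChip at either floor, with quantile scaling or with no replicate block, 4 with low probe sets left out, 16 with chips as separate samples, 28 at an unadjusted p, and between 0 and 8 without 1 chip (0 without COUP-TFI-/- A1, wild-type A2 or wild-type B1, 3 without wild-type A1, 8 without COUP-TFI-/- B1). The causes were not tested. Signal near background limits probe sets such as Pmp22 161442_at and Cnp, and the files used here hold no detection calls.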
